A study of Canis lupus familiaris with 9 samples.

Results

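The core clock and clock output genes CLOCK, PER1, PER2, PER3, CRY1, CRY2, NR1D1, NR1D2, DBP and NFIL3 were followed in skeletal muscle of 9 dogs. Of these 10 genes, 8 were the only gene symbol of at least 1 probe set in the platform annotation, out of 15115 genes named on the array in this way. No probe set carried NR1D1 or DBP as its only symbol, and both were not analysed here. The 8 genes had 22 probe sets. Where a gene had several, the brightest on average stands for it (its representative probe set), and the others are given beside it.

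In the ad libitum group 5 dogs (animals 2, 5, 6, 7 and 8) ate without restriction. In the control group 4 dogs (animals 1, 3, 4 and 9) were fed so that they kept the weight they began with. All were intact female beagles, 4 years old, on the same commercial food, and muscle was taken after 24 weeks and an overnight fast. Dogs were placed in the groups at random, and each dog is 1 array. Which muscle was sampled and at what hour of the day are not given in the sources used here.

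In mammals the clock is a loop of transcription factors that runs in nearly every cell, muscle fibres included. CLOCK pairs with BMAL1, the product of ARNTL, and the pair switches on the period genes (PER) and cryptochrome genes (CRY), whose proteins then repress it. The pair also switches on NR1D1 and NR1D2, nuclear receptors that repress ARNTL, and DBP, an activator that competes with the repressor NFIL3 for the same DNA element in clock output genes. Because these transcripts rise and fall over the day in phases of their own, their levels in a single biopsy depend on when it was taken.

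Each array gave a GCRMA value, taken as log2, for 43035 probe sets, and array pairs correlated at r = 0.976 to 0.994. A probe set was tested if its value was above 4 on at least 4 arrays, which 18394 probe sets met. The tissue label was checked on 12 genes of skeletal muscle: 10 were tested, and the median over dogs of their mean was 15.2 in ad libitum dogs and 15.4 in control dogs. CKM had no probe set of its own and RYR1 was below the filter. Markers of 3 other cell types had higher means in ad libitum muscle. This held for all 14 tested adipocyte markers, all 8 tested macrophage markers of 13 and all 11 tested fibroblast markers of 12. The median log2 difference over all probe sets tested was -0.0082. In these lists 0 markers passed an adjusted p of 0.05 (limma). An unadjusted p under 0.05 (limma) was found for 3, 3 and 5 of them, beside 5.91% of all probe sets tested. The mean of the adipocyte markers ranged from 7.67 to 9.55 in ad libitum dogs and from 6.92 to 8.52 in control dogs. The mean of the macrophage markers ranged from 5.00 to 8.01 in ad libitum and from 4.90 to 5.66 in control dogs, and that of the fibroblast markers from 7.88 to 11.6 in ad libitum and from 7.62 to 8.94 in control dogs. The endothelial markers did not follow this: all 12 were tested, 6 had a higher and 6 a lower mean in ad libitum muscle, and their median log2 difference was 0.015. Of these, 0 passed an adjusted p of 0.05 and 1 had an unadjusted p under 0.05 (limma), again beside 5.91% of all probe sets tested. RNA quality was read from the 3' minus 5' difference of 1 pair of GAPDH control probe sets, on the log2 scale. This difference was 2.14 to 2.29 (median 2.24) in ad libitum dogs and 1.96 to 2.22 (median 2.10) in control dogs. The part of RNA quality in the group differences was not tested.

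The first comparison asked whether clock transcripts differed between dogs fed ad libitum and control dogs. Of the 8 genes with a probe set, 7 passed the filter, and in none of them did the groups separate. With limma and Benjamini-Hochberg adjustment over all 18394 probe sets, 0 of the 7 genes passed an adjusted p of 0.05, and 0% of all probe sets did. At an unadjusted p under 0.05 the count was also 0 of 7, beside 5.91% of all probe sets tested. It was 1 of the tested clock genes, NFIL3, under 5 of the alternatives given with that gene. The groups overlapped in all 7 genes, while they did not overlap in 1.44% of all probe sets. The median log2 difference, ad libitum minus control, was 0.077 over the 7 genes and -0.0082 over all probe sets tested. The plot of values by dog shows this overlap gene by gene.

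**Figure D1:**
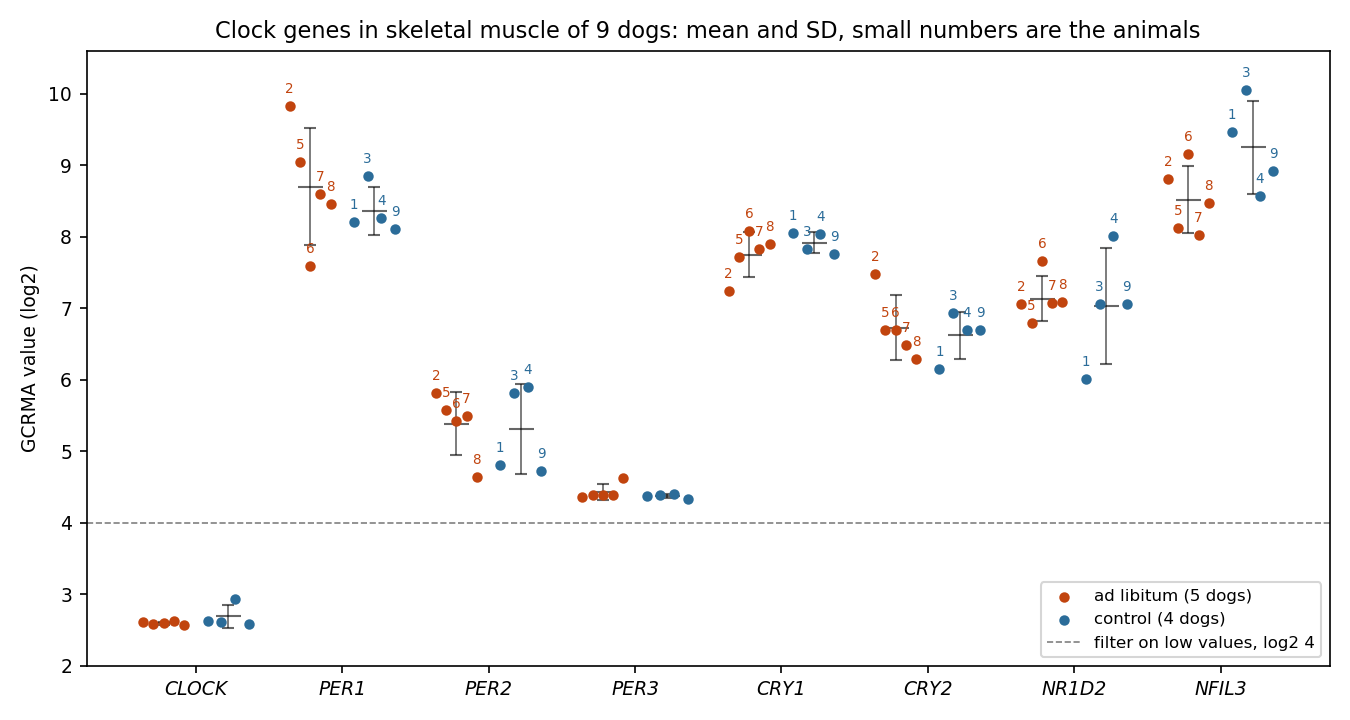
GCRMA value (log2) of the representative probe set of 8 clock genes, with ad libitum dogs in orange left of control dogs in blue, 1 point per dog, small numbers giving the animal, and black bars giving the mean and SD. CLOCK lies below the filter at log2 4 on all 9 arrays, and the groups overlap in all 7 genes above it.

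CLOCK, the partner of BMAL1, could not be compared between groups. Both of its probe sets lay under the filter on all 9 arrays. The higher had values between 2.57 and 2.62 in ad libitum dogs and between 2.59 and 2.93 in control dogs, and the other spanned only 0.027 over the 9 arrays. Such low values were common: 53.0% of the array's probe sets had no value above 4. The values give no order of dogs or groups for CLOCK.

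PER1 is a period gene whose transcript also responds quickly to hormones and other signals. Its representative probe set stood at 9.82, 9.05, 7.59, 8.60 and 8.45 in ad libitum dogs 2, 5, 6, 7 and 8, against 8.21, 8.85, 8.26 and 8.11 in control dogs 1, 3, 4 and 9. The highest and the lowest of the 9 values were both in ad libitum dogs, 2 and 6, and the control dogs lay between them. The mean of PER1 was 8.70 ± 0.82 (SD, n = 5) in ad libitum dogs, against 8.36 ± 0.34 (SD, n = 4) in control dogs. The log2 difference was 0.34 (SE 0.39, 95% interval -0.54 to 1.22, adjusted p = 0.895, limma). Without ad libitum dog 2 it was 0.064, and without ad libitum dog 6 it was 0.62.

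The further probe sets of PER1 gave the same picture of a wide ad libitum group. Of its 6 probe sets 3 passed the filter, and the other 2 that passed had log2 differences of 0.10 (95% interval -0.74 to 0.95) and 0.033 (95% interval -0.48 to 0.55). In all 3, ad libitum dog 2 was highest and ad libitum dog 6 lowest. In the probe set with a difference of 0.033 the width came from these dogs alone, at 5.82 and 4.46. There the other ad libitum dogs read 5.09 to 5.10 and the control dogs 5.02 to 5.11. The 3 PER1 probe sets correlated pairwise over the 9 dogs at r = 0.89 to 0.98 (exact permutation p = 0.00121 to 0.00293) and rho = 0.53 to 0.72 (exact permutation p = 0.0369 to 0.150). Without ad libitum dogs 2 and 6 r was 0.37 to 0.66.

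PER2, a core repressor of the loop, was followed with 1 of its 2 probe sets. The single tested probe set read 5.81, 5.58, 5.42, 5.49 and 4.64 in ad libitum dogs 2, 5, 6, 7 and 8, against 4.81, 5.81, 5.90 and 4.72 in control dogs 1, 3, 4 and 9. Ad libitum dog 8 and control dogs 1 and 9 were low, and the other 6 dogs lay above a gap of 0.61 that took up 48.2% of the whole range. Both feeding groups were found on each side of the gap. The mean of PER2 was 5.39 ± 0.44 (SD, n = 5) in ad libitum dogs, against 5.31 ± 0.63 (SD, n = 4) in control dogs. Its log2 difference was 0.077 (SE 0.32, 95% interval -0.64 to 0.80, adjusted p = 0.977, limma). The sign turned to -0.030, -0.090 and -0.12 without ad libitum dog 2, control dog 1 and control dog 9.

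PER3, a period gene that the loop can run without in mice, had values that varied little. Its tested probe set had values from 4.36 to 4.62 in ad libitum dogs and from 4.33 to 4.40 in control dogs, just above the filter. So near the filter, the narrow spread does not show how far the transcript varied. In 4 of the 9 arrays, those of ad libitum dogs 5, 6 and 7 and control dog 3, the value was the same, 4.38107, and 1.22% of all tested probe sets had 4 or more arrays at 1 value. Only ad libitum dog 8 stood off the rest. The log2 difference was 0.053 (95% interval -0.17 to 0.27, adjusted p = 0.939, limma), and without ad libitum dog 8 it was 0.0038. The other PER3 probe set stayed under the filter, at 3.00 to 3.28 over the 9 arrays.

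The cryptochromes CRY1 and CRY2, partners of the period proteins in repression, each had 1 probe set, and both passed. CRY1 stood at 7.24, 7.71, 8.08, 7.83 and 7.89 in ad libitum dogs 2, 5, 6, 7 and 8, against 8.05, 7.83, 8.04 and 7.76 in control dogs 1, 3, 4 and 9. Ad libitum dog 2 was lowest and ad libitum dog 6 highest, the reverse of their places for PER1. The mean of CRY1 was 7.75 ± 0.32 (SD, n = 5) in ad libitum dogs, against 7.92 ± 0.15 (SD, n = 4) in control dogs. Its log2 difference was -0.17 (SE 0.17, 95% interval -0.55 to 0.22, adjusted p = 0.887, limma). Without ad libitum dog 2 it was -0.039.

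CRY2 stood at 7.48, 6.70, 6.69, 6.48 and 6.29 in ad libitum dogs 2, 5, 6, 7 and 8, against 6.15, 6.93, 6.70 and 6.69 in control dogs 1, 3, 4 and 9. Ad libitum dog 2 was again at an end of the range, here the top, and control dog 1 was lowest. The mean of CRY2 was 6.73 ± 0.45 (SD, n = 5) in ad libitum dogs, against 6.62 ± 0.33 (SD, n = 4) in control dogs. The log2 difference was 0.11 (SE 0.25, 95% interval -0.45 to 0.67, adjusted p = 0.949, limma), and it was -0.079 without ad libitum dog 2 and -0.046 without control dog 1.

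NR1D2, also called REV-ERB beta, represses ARNTL and other genes with its binding element. Its representative probe set stood at 7.06, 6.79, 7.66, 7.07 and 7.08 in ad libitum dogs 2, 5, 6, 7 and 8, against 6.01, 7.05, 8.01 and 7.05 in control dogs 1, 3, 4 and 9. Here both ends of the range were control dogs, dog 4 at the top and dog 1 at the bottom, with all ad libitum dogs between them. The mean of NR1D2 was 7.13 ± 0.32 (SD, n = 5) in ad libitum dogs, against 7.03 ± 0.81 (SD, n = 4) in control dogs. Its log2 difference was 0.10 (SE 0.35, 95% interval -0.69 to 0.89, adjusted p = 0.967, limma).

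The direction of NR1D2 depended on the probe set. Of its 5 probe sets 3 passed the filter, and the other 2 that passed both had a log2 difference of -0.16, with 95% intervals from -0.60 to 0.28 and from -1.26 to 0.94. The 3 NR1D2 probe sets correlated pairwise over the 9 dogs at r = 0.69 to 0.70 (exact permutation p = 0.0288 to 0.0462) and rho = 0.49 to 0.74 (exact permutation p = 0.0260 to 0.187). In all 3 control dog 4 was highest. Without the 2 dogs farthest from the median r ran from -0.0093 to 0.56, so for 1 pair the relation rested on those dogs. Without control dog 1 the representative probe set differed by -0.24, and without ad libitum dog 6 by -0.030.

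NFIL3, the repressor of the DBP element and also a regulator of immune cells, had the largest difference and the smallest p of the 7 tested clock genes. Its representative probe set stood at 8.80, 8.12, 9.15, 8.03 and 8.48 in ad libitum dogs 2, 5, 6, 7 and 8, against 9.46, 10.05, 8.56 and 8.92 in control dogs 1, 3, 4 and 9. All 5 ad libitum dogs lay below the control mean, but ad libitum dogs 2 and 6 lay above control dog 4, so the groups overlapped. The mean of NFIL3 was 8.52 ± 0.47 (SD, n = 5) in ad libitum dogs, against 9.25 ± 0.65 (SD, n = 4) in control dogs. The log2 difference was -0.73 (SE 0.33, 95% interval -1.48 to 0.017), with an unadjusted p of 0.0545 and an adjusted p of 0.796 (limma). The difference did not pass the test, and as a fold of ad libitum over control the interval ran from 0.358 to 1.01.

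A second NFIL3 probe set passed the filter and had a log2 difference of -0.68 (SE 0.38, 95% interval -1.54 to 0.18, adjusted p = 0.796, limma). The 2 tracked each other over the 9 dogs at r = 0.89 (exact permutation p = 0.00174) and rho = 0.83 (exact permutation p = 0.00827), and r was 0.77 without the 2 dogs farthest from the median. Adjusted over the 7 pairs of probe sets of 1 gene examined, the p of r was 0.00460 for NFIL3 and at most 0.0462 for any pair, and that of rho was 0.0579 for NFIL3 and not lower for any other pair (exact permutation tests). Control dog 3 was highest in both. Without control dog 3 the representative probe set differed by -0.46, and without control dog 4 by -0.96. With the mean of the adipocyte markers, which were all higher on average in ad libitum dogs, as a covariate it differed by -1.13 (unadjusted p = 0.0241, adjusted p = 1.00, limma). The unadjusted p of NFIL3 was also under 0.05 with a filter at log2 6 (0.0486), with median centring (0.0467), without ad libitum dog 6 (0.0260) and without control dog 4 (0.0187), and its adjusted p was at least 0.559 under every alternative run (limma). The part of other cell types in the NFIL3 difference was not tested, and in whole tissue fewer cells of a type and less RNA per cell cannot be told apart.

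**Figure D2:**
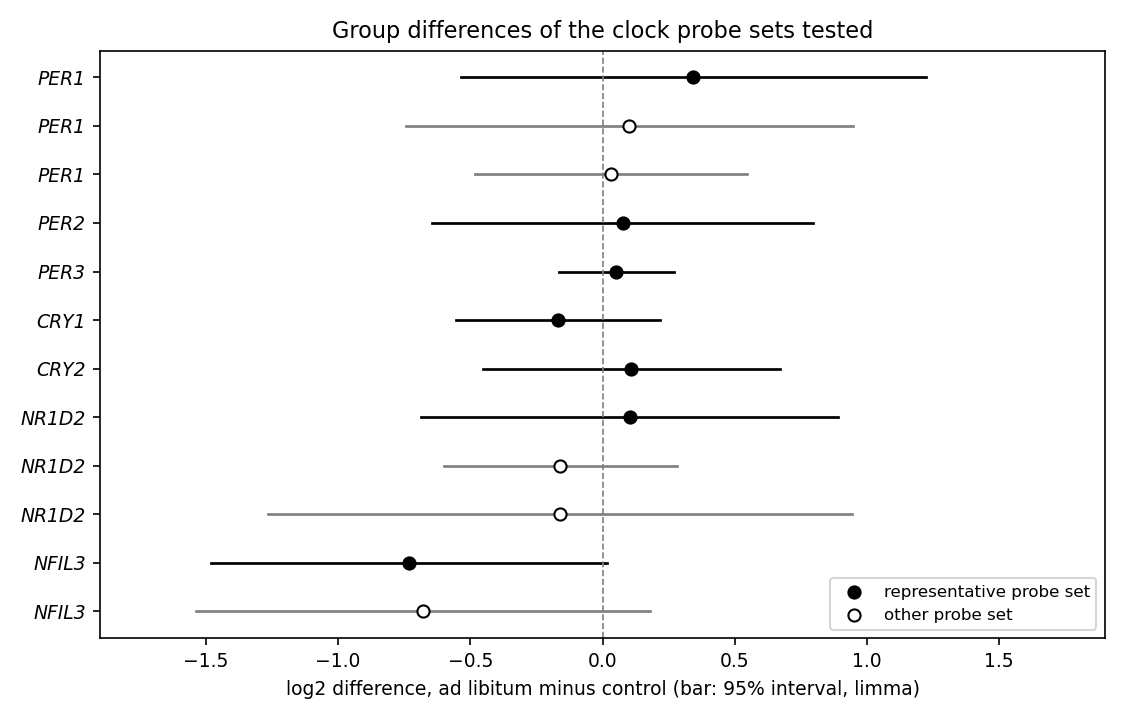
Log2 difference, ad libitum minus control, of the 12 tested clock probe sets, with filled points for the representative probe set of each gene, open points for its other probe sets, and bars for the 95% interval of the limma fit. All 12 intervals include 0, and those of NFIL3 reach farthest below it.

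In 6 of the 7 tested clock genes the difference between group means was smaller than the SD within groups, and in NFIL3 it was larger. The SD within groups, pooled in the fit, was 0.66 for PER1, 0.53 for PER2, 0.59 for NR1D2 and 0.55 for NFIL3 on the log2 scale, against a median of 0.31 over all probe sets tested. It was 0.40 for CRY2, 0.26 for CRY1 and 0.085 for PER3. PER1 lay above 91.7% of all tested probe sets in this respect, NR1D2 above 88.2%, NFIL3 above 86.2% and PER2 above 84.5%, while CRY1 and PER3 lay above 37.9% and 3.33%. These values are a description of the 9 dogs, and the spread of a probe set also depends on its level and its probes.

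A further comparison asked whether clock genes varied together from dog to dog. Over the 21 pairs of the 7 tested genes, Pearson's r was above 0 in 11 and below 0 in 10. In 3 pairs the exact permutation p was under 0.05, and 0 pairs passed after Benjamini-Hochberg adjustment over the 21 pairs. PER1 and CRY1 had the strongest relation, at r = -0.88 (exact permutation p = 0.00268, adjusted p = 0.0564) and rho = -0.74 (exact permutation p = 0.0260, adjusted p = 0.273). Without the 2 dogs farthest from the median of PER1, ad libitum dogs 2 and 6, r was -0.57. With each gene centred on its group means r was -0.87 (exact permutation p within groups = 0.0215, adjusted p = 0.452). Leaving out 1 dog at a time gave r from -0.94, without control dog 9, to -0.71, without ad libitum dog 2. Without control dog 9 the adjusted exact permutation p was 0.00104, so that the pair passed with 8 dogs and not with 9.

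CRY1 and CRY2 ran in opposite directions as well, at r = -0.77 (exact permutation p = 0.0246, adjusted p = 0.258) and rho = -0.52 (exact permutation p = 0.153, adjusted p = 0.622), and r was -0.49 without ad libitum dogs 2 and 6 and -0.32 without dog 2 alone. PER1 and CRY2 had r = 0.66 (exact permutation p = 0.0598, adjusted p = 0.314) and rho = 0.57 (exact permutation p = 0.115, adjusted p = 0.622), and r was 0.43 without ad libitum dogs 2 and 6 and 0.17 without dog 2 alone. These relations thus rested in part on ad libitum dog 2, which was highest for PER1 and CRY2 and lowest for CRY1. The same dog had the highest mean of adipocyte markers, 9.55. It also had the largest 3' minus 5' difference of 1 pair of GAPDH control probe sets, 2.29 on the log2 scale, where the other dogs lay between 1.96 and 2.25. Such a difference is a measure of RNA quality. In a further GAPDH pair the 5' probe set read above the 3' probe set in every dog, by least in ad libitum dog 2, at 15.9 against 15.7. The part of these features in the relations was not tested.

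**Figure D3:**
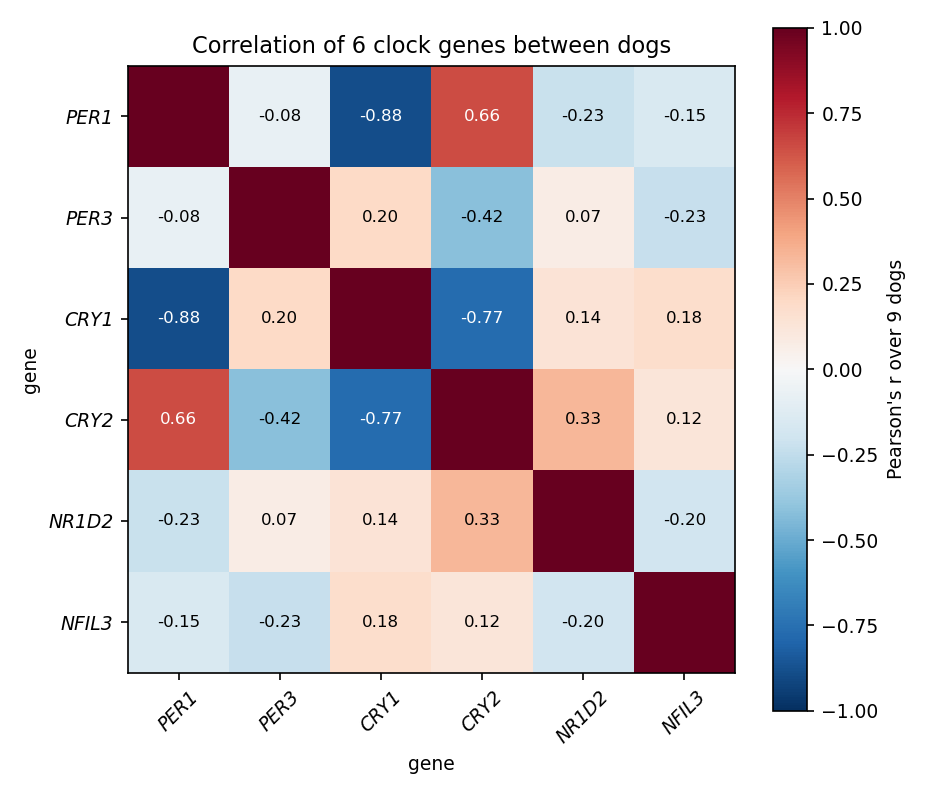
Pearson's r over 9 dogs between 6 clock genes, each by its representative probe set, with red for genes high in the same dogs and blue for genes high in different dogs. PER1 and CRY1 have the lowest value, -0.88, and NFIL3 lies within 0.23 of 0 with each other gene. PER2 is left out because of the wide gap in its values. Its r with CRY2 over 9 dogs, 0.67, was the highest of all 21 pairs.

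The widest gap in the PER2 values parted 6 dogs from 3, so an r over all dogs takes in this gap. Whether these are separate clusters of dogs was not tested. Over all 9 dogs PER2 and CRY2 had r = 0.67 (exact permutation p = 0.0372, adjusted p = 0.261) and rho = 0.79 (exact permutation p = 0.0141, adjusted p = 0.273). Within the 6 dogs PER2 and CRY2 had r = 0.54 (exact permutation p = 0.278) and rho = 0.64 (exact permutation p = 0.200). None of the 7 relations of PER2 computed within the 6 dogs, ARNTL included, had an adjusted p below 0.820 (exact permutation tests). The 6 dogs were picked by their PER2 values, which narrows the range of PER2. These tests therefore cannot decide whether PER2 varied with another gene.

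ARNTL, which encodes BMAL1 and stands opposite the period genes in the loop, was set beside them after its values were seen, which added 7 relations. Over all 28 relations 0 passed after adjustment and 4 had an unadjusted p under 0.05 (exact permutation tests). The ARNTL relation among the 4 was that with PER2, at r = -0.84 (exact permutation p = 0.00609) and rho = -0.67 (exact permutation p = 0.0589) over 9 dogs. The adjusted p of this r was 0.0853 over the 28 relations and 0.0426 over the 7 of ARNTL (exact permutation tests). This r also takes in the widest gap in the PER2 values. The ARNTL representative probe set stood at 4.04, 4.42, 4.50, 3.92 and 5.39 in ad libitum dogs 2, 5, 6, 7 and 8, against 5.77, 4.56, 3.98 and 4.93 in control dogs 1, 3, 4 and 9. The 3 dogs with the lowest PER2, ad libitum dog 8 and control dogs 1 and 9, had the 3 highest ARNTL values. A second ARNTL probe set had its 3 highest values in the same dogs, at 5.33 in ad libitum dog 8 and at 5.32 and 5.53 in control dogs 1 and 9. The remaining ARNTL probe set, below the filter on 6 of the 9 arrays, did not have this order: control dog 3, at 4.03, lay above ad libitum dog 8, at 3.84. Within the other 6 dogs ARNTL and PER2 had r = -0.23 (exact permutation p = 0.703) and rho = -0.029 (exact permutation p = 1). Since these dogs were picked by their PER2 values, that r cannot decide whether the 2 genes are related. Several ARNTL values lay near or under the filter at log2 4, where the size of a difference is uncertain.

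**Figure D4:**
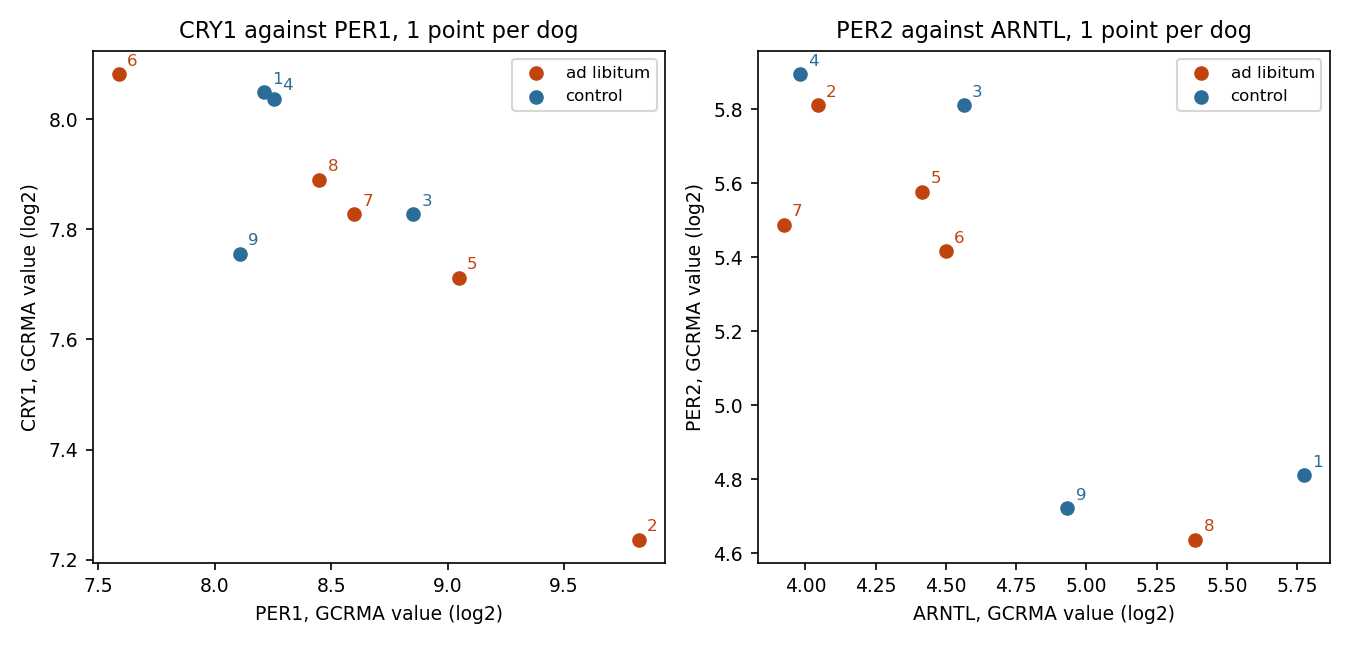
GCRMA values (log2) of CRY1 against PER1 (left) and of PER2 against ARNTL (right), 1 point per dog with its animal number, ad libitum in orange and control in blue. CRY1 is lowest where PER1 is highest, in ad libitum dog 2, and the 3 dogs with PER2 under 5 (8, 1 and 9) have the 3 highest ARNTL values.

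The other clock genes showed no group difference that passed the test either. Of 24 symbols of partners, paralogs, kinases and ubiquitin ligases of the clock, 16 had a probe set and 10 were tested. Of these, 0 passed an adjusted p of 0.05 and 0 had an unadjusted p under 0.05 (limma), beside 5.91% of all probe sets tested. In ad libitum dogs 5 were higher and 5 lower, with a median log2 difference of -0.026. ARNTL differed by -0.36 (SE 0.39). PPP1CB, a phosphatase subunit, differed by -0.45 (SE 0.31), GSK3B, a kinase of clock proteins, by 0.24 (SE 0.25), and CSNK1D, the casein kinase that marks period proteins for decay, by 0.086 (SE 0.12). ARNTL2, NPAS2, RORB, HLF, CSNK1E and TIMELESS were under the filter.

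Other members of that list were looked at after their values were seen, for their place in the loop. BHLHE40 and BHLHE41, repressors that bind the same DNA element as CLOCK, differed by -0.15 and 0.067 and were well above the filter, at 10.5 to 11.7 in ad libitum and 11.2 to 11.6 in control dogs for BHLHE40 and at 9.47 to 10.4 in ad libitum and 9.29 to 10.8 in control dogs for BHLHE41. TEF, an activator related to DBP, lay at 5.29 to 5.34 in ad libitum dogs and at 4.87 to 6.49 in control dogs. The TEF value of 6.49 was that of control dog 4, which was also highest for NR1D2, PER2 and BHLHE41. Other dogs were highest for PER1, PER3, CRY1, CRY2, NFIL3, BHLHE40 and ARNTL.

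Genes whose transcripts cycle over the day in mouse muscle were compared next. Of 18 symbols 15 were tested, 10 with a higher and 5 with a lower mean in ad libitum dogs, and 0 passed an adjusted p of 0.05. At an unadjusted p under 0.05 there were 2, NOCT and FBXO32, again beside 5.91% of all probe sets. NOCT, nocturnin, a phosphatase of nicotinamide cofactors whose transcript cycles strongly in mouse tissues, stood at 3.12, 3.15, 3.91, 3.54 and 4.10 in ad libitum dogs 2, 5, 6, 7 and 8, against 4.49, 3.93, 4.20 and 4.61 in control dogs 1, 3, 4 and 9. Among the ad libitum dogs only dog 8 was above the filter, so the size of the NOCT difference, -0.75 (SE 0.24, adjusted p = 0.796, limma), is uncertain. FBXO32, a ubiquitin ligase of muscle wasting, differed by -0.81 (SE 0.34, adjusted p = 0.796, limma). The cell cycle inhibitor CDKN1A and the glycogen-targeting subunit PPP1R3C, next in order of p, differed by 1.04 (SE 0.57) and 0.40 (SE 0.24).

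PER1 is also induced by glucocorticoids, so genes of the glucocorticoid response were examined beside it. Of 18 symbols 17 were tested, 6 with a higher and 11 with a lower mean in ad libitum dogs, and 0 passed an adjusted p of 0.05. DUSP1, a phosphatase of MAP kinases, was the only gene of this list with an unadjusted p under 0.05, beside 5.91% of all probe sets, a share that 1 gene of 17 does not exceed. It differed by -0.80 (SE 0.30, adjusted p = 0.796, limma), with values of 11.9 to 13.3 in ad libitum and 13.3 to 13.8 in control dogs. The metallothionein MT2A differed by 1.20 (SE 0.57), the kinase SGK1 by -1.17 (SE 0.60) and the transcription factor FOXO3 by -0.38 (SE 0.20).

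Among the 7534 tested genes, each again by its representative probe set, those most like NFIL3 over the 9 dogs were IP6K1, CBY2, ZFYVE19, MRPL16 and DYSF, with r from 0.86 to 0.89. Those running most opposite were DAZAP2, PSMC2, SNX24, SERTAD1 and CIAO2A, with r from -0.94 to -0.89. CBY2 lay near the filter, at 4.19 to 4.54 over the 9 dogs, and DYSF spanned only 12.3 to 12.5. These correlations across genes are the extremes of all tested genes and are a description with no test. For PER1, 24 other genes had a lower r than CRY1 among 7533.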

How the data were processed

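Muscle RNA of 9 dogs was measured on 1 Affymetrix canine array each. The deposited values were made by the authors with GCRMA (version not given), per the submitters' processing notes, and were taken as log2 from their range, 0.652 to 16.6. GCRMA corrects each probe for background, equalises the distributions of the arrays and summarises a probe set, so values near background are uncertain and a shift of most genes would not show. Precision is set by how few arrays there are. The labels give no batch, and each array is 1 dog.

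Control probe sets (111) were left out. Probe sets with several symbols (439) were not named. Groups came from the sample titles. Group differences came from limma 3.58.1 (R 4.3.3, lmFit and eBayes, two-sided, no covariate, 7 residual degrees of freedom), with Benjamini-Hochberg adjustment over 18394 probe sets. Correlations were tested over all 362880 pairings of dogs, two-sided, and within groups over 2880. Both steps were tested on simulated data.

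The members, lists, tests and alternatives were chosen with earlier results of these data known. In each list the genes with an unadjusted p under 0.05 were named, or the 4 with the lowest p. Likeness was to be given for NR1D1 and CLOCK; since neither these nor DBP were tested, NFIL3 took their place. The alternatives were other filters, a floor, cyclic loess, median centring, other eBayes settings, array weights, an adipocyte covariate, other probe sets, and leaving out each dog. No sequences were used here.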

Additional observations from a re-analysis of the deposited data

Results flagged for a closer look

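In 48 groups of values (the 12 tested clock probe sets and the 12 genes named from the lists, in each feeding group), 3 held a dog far from the rest by Dixon's criterion at the 95% level, which chance gives in about 1 in 20 groups. PER3 in ad libitum dog 8 was at 4.62, with the next dog at 4.38. A PER1 probe set in control dog 9 was at 5.02, with the next control dog at 5.10 and the highest at 5.11. CSNK1D in control dog 1 was at 8.56, with the next control dog at 8.73 and the highest at 8.74.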

How the results depend on the processing

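No clock gene passed an adjusted p of 0.05 under any alternative run, and the lowest adjusted p of a clock gene was 0.559 (limma). Over all probe sets 0 were called, 1 with values below log2 4 raised to 4, and 0 to 1 when 1 dog was left out (1 without ad libitum dog 8); at an unadjusted p under 0.05 there were 1088, against 2151 when ad libitum dog 7 and 695 when ad libitum dog 5 was left out, 1865 with array weights and 473 with the adipocyte covariate. The count of correlated clock pairs was 0, and 0 to 1 when 1 dog was left out (1, PER1 with CRY1, without control dog 9). Of the 125 log2 differences recomputed for the 7 genes, 114 kept their direction and 11 turned, all of them in PER2, CRY2 and NR1D2. With a dog left out PER2 ran from -0.12 to 0.27, CRY2 from -0.079 to 0.22 and NR1D2 from -0.24 to 0.43. CRY2 was -0.0036 with the adipocyte covariate. NR1D2 was -0.072 as the mean of its probe sets, and -0.159 and -0.160 in its other probe sets. NFIL3 ran from -1.13 to -0.46 over all alternatives, lowest with the adipocyte covariate and highest without control dog 3. The cause of these changes was not tested. No paired analysis was possible because the groups share no animal numbers. The filter at log2 6 left no value for PER2 and PER3. The intervals of the clock genes, from -1.48 to 1.22 at their widest, limit what 9 arrays can show.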
